A study of Mus musculus with 2 samples.

Results

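Plasmacytoid dendritic cells (pDCs) were examined in 2 scRNAseq libraries of CD45+ cells from B16 melanomas. A pDC was any kept barcode with at least 3 unique molecular identifiers (UMIs, the counted RNA molecules) of Siglech and 0 UMIs of Cd3e, a T cell gene, and of C1qa, a macrophage gene. A barcode was kept with at least 500 UMIs, at least 200 genes and under 10% of UMIs from mitochondrial genes. The rule found 150 pDCs among 13040 kept barcodes, 40 of 7433 in the h219-LLG library and 110 of 5607 in the control antibody library. The members were thus chosen by their measured Siglech, Cd3e and C1qa counts, which are given below only as a description.

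Both libraries came from mice of the same kind, aged 6 to 8 weeks, that carried human LAIR1 as a Vav-cre transgene on a LAIR1-/- C57bl/6j background, so the human receptor was driven in blood-forming cells and the mouse receptor was targeted in treated and control animals alike. The mice received 500000 B16 melanoma cells under the skin, then intravenous antibody at 10 mg/kg from day 5, every 4 days for 3 doses, and tumors were taken on day 16. The treated group received h219-LLG, a humanized antibody that blocks LAIR1 and has an Fc part altered to lose effector function, and the other group received an isotype control antibody. Live mouse CD45+ cells were sorted and 1 library was made per group. The sources used here do not state how many tumors entered a library, so no difference below has a replicate check, and every interval covers counting error only (95%).

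pDCs are a rare dendritic cell type known for sensing viral and self nucleic acids in endosomes through TLR7 and TLR9 and for making large amounts of type I interferon through IRF7. Their identity is held by the transcription factor TCF4 (also called E2-2), an E protein, which binds short DNA motifs called E-boxes. In tumors they are often described as poor interferon producers. LAIR1 is an inhibitory receptor for collagens and for the complement protein C1q, and signals through ITIM motifs that recruit the phosphatases SHP-1 and SHP-2.

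The label held against the markers that the rule did not use. Tcf4 was read in 40 of 40 and 110 of 110 pDCs, with 2524 CPM (the UMIs of a gene over all UMIs of a library's pDCs, times 1000000) in the h219-LLG library and 2432 CPM in the control library, against 88.5 and 75.1 CPM in all other kept barcodes. Bst2, which encodes the surface protein recognized by pDC antibodies, stood at 3190 and 3573 CPM, against 115 and 117 CPM elsewhere. Siglech itself, a sialic acid binding lectin of mouse pDCs, stood at 2759 and 3224 CPM. Without Siglech, asking for any 4 of 8 other pDC genes (Ccr9, Klk1, Cox6a2, Smim5, Pacsin1, Ly6d, Klra17 and Upb1), the same exclusions found 147 barcodes, all of them among the 150 and none with 0 UMIs of Siglech. They were 37 of the 40 h219-LLG members and 110 of the 110 control members, so every member missed was in the h219-LLG library. The cells found both ways were thus marked out by several genes at once.

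The threshold on Siglech fell in a sparse zone. Of kept barcodes free of Cd3e and C1qa, 8 in the h219-LLG library and 13 in the control library had 1 or 2 Siglech UMIs, 4 and 4 had 3 to 9, and 36 and 106 had 10 or more. The barcodes just outside had 406 and 229 CPM of Tcf4, and those just inside had 764 and 2057 CPM. The 4 h219-LLG members just inside were therefore lower in Tcf4 than the 36 above them, which held 2743 CPM, and results that rest on them are named below. A further 6 and 4 barcodes with at least 3 Siglech UMIs were left out for Cd3e or C1qa. No member's barcode sequence occurred in both libraries, against 13 barcodes shared in all.

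pDCs were also deep for these libraries. Their median was 9250 UMIs and 2750 genes in the h219-LLG library and 12190 UMIs and 3300 genes in the control library, against medians of 5032 and 5716 UMIs in the other kept barcodes. The summed depth was 378725 and 1358319 UMIs, so a gene's level was measured more precisely in the control pDCs. The median mitochondrial share was 4.34% and 4.26%. Markers of most other lineages were scarce in the pDCs. For T cell and macrophage markers this was partly set by the rule, which left out barcodes with Cd3e or C1qa. Those lists therefore do not check the label independently. All 5 melanoma markers were at 0 in the h219-LLG pDCs and 3 of 5 in the control pDCs. Of 6 NK cell and 6 neutrophil markers, 5 and 3 were at 0 in the h219-LLG pDCs and all were at 0 in the control pDCs. Summed T cell markers reached 81.9 and 67.0 CPM, B cell markers 106 and 53.7 CPM, and macrophage markers, 2 of 8 of which (C1qc and Mrc1) were at 0 in the h219-LLG pDCs, 190 and 104 CPM, against at least 1284 CPM of each in the other kept barcodes. Plasma cell markers, some of which pDCs also express, were at 190 and 174 CPM, against 138 and 268 CPM elsewhere, with Jchain and Tnfrsf17 at 0 in the h219-LLG pDCs, and erythroid markers at 2.64 and 20.6 CPM, against 1031 and 1803 CPM. The part of these low lineage counts in the differences below was not tested.

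The genes that set pDCs apart from all other kept barcodes were led by Siglech, with a level 811 and 814 times that of the other barcodes in the h219-LLG and control libraries. Ranked by the smaller of the 2 libraries' enrichments, the next genes were D13Ertd608e, Robo3, an axon guidance receptor gene, 1700024P16Rik, Grm8, a glutamate receptor gene, Scn3a, a sodium channel subunit gene, Klk1, a kallikrein gene, Cox6a2, a cytochrome c oxidase subunit gene otherwise used in muscle, Sh3bgr, Myh13, a muscle myosin gene, Paqr5, a membrane progesterone receptor gene, Cdh5, the VE-cadherin gene, Smim5, Klk1b27 and Cd300c. Cox6a2 was among the most abundant of these, at 1439 CPM in the h219-LLG pDCs and 1500 CPM in the control pDCs, against 2.78 and 1.86 CPM elsewhere. Klk1 stood at 644 and 531 CPM and Klk1b27 at 135 and 181 CPM, and since kallikrein genes are near copies of each other, their split is uncertain. Myh13 rested on few molecules in the h219-LLG library, where 3 UMIs came from 1 cell. These genes were found by comparing the cells with the rest, so their rank is a description and carries no test.

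Because TCF4 binds E-boxes, the promoter windows of these genes are shown with the E-box CACCTG, which reads CAGGTG when the opposite strand is taken, in capitals. Sequences are from RefSeq (GRCm38.p6), 250 bases before to 50 bases after the annotated start, read 5′ to 3′ on the gene's strand. Of the 15 genes, 8 had a window in the table, and the windows of Siglech (chr7:55767934-55768233, plus strand), Klk1 (chr7:44225110-44225409, plus strand), Paqr5 (chr9:62026741-62027040, minus strand) and Cd300c (chr11:114960458-114960757, minus strand) are printed as those with a match within 100 bases before the start among the well counted genes.
Siglech: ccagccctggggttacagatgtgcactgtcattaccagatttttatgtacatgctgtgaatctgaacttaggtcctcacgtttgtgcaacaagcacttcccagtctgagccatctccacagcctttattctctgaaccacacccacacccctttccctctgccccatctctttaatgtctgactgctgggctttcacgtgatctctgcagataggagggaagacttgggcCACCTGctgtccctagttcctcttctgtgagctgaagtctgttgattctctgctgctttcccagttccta
Klk1: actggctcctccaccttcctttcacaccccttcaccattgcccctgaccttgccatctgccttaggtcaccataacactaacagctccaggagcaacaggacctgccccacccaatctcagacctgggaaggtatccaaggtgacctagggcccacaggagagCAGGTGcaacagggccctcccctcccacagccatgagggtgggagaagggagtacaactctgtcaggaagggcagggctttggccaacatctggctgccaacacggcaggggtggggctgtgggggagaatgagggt
Paqr5: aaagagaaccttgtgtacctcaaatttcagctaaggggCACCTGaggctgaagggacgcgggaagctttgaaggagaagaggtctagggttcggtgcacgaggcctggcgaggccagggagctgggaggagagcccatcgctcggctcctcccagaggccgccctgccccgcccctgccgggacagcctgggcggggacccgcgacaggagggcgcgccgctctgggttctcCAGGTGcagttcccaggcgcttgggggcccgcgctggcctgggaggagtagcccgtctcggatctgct
Cd300c: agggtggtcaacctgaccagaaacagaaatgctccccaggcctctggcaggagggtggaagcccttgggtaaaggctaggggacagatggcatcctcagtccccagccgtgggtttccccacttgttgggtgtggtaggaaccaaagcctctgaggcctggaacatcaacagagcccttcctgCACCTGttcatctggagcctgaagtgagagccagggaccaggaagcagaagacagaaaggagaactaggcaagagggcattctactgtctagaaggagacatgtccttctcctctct

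The match began 20 bases before the start in Siglech, 87 bases before it in Klk1, 67 bases before it in Cd300c, and at 212 and 18 bases before it in Paqr5. Counting both strands, 7 of the 8 genes (87.5%) held the motif in a window, Myh13 being the exception. It was held by 11 of 25 genes (44%) ranked 16th to 50th by enrichment, by 23 of 82 (28.0%) ranked 51st to 150th, by 678 of 3571 (19.0%) of all tested genes with a window by 6098 of 27025 (22.6%) of all genes with a window and, window by window, by 6640 of 32851 (20.2%). For this form of the E-box the share was thus higher the more a gene was enriched in pDCs. The top group is small, and its genes are not independent. Siglech, 1 of the 7, ranked high because the rule chose members by it. Klk1 and Klk1b27 belong to the same gene family, and Grm8 held the motif in 1 window but not in its others. The trend was not tested. The general form CANNTG, with N any base, was held by 8 of 8, 22 of 25 (88%) and 58 of 82 (70.7%). Its share was 65.1% of all tested genes and 75.0% of all genes with a window. With that form, genes ranked 51st to 150th were thus below the share of all genes with a window. By the same ranking, 14 of 34 (41.2%) of the 50 genes most enriched in B cells held CACCTG or CAGGTG. So did 8 of 39 (20.5%) of those most enriched in conventional dendritic cells, against 18 of 33 (54.5%) for pDCs. The median GC content of these windows was 57.2% for pDCs, 51.2% for B cells and 54.7% for conventional dendritic cells, against 61.7% for all genes tested, and its part in the shares was not tested. A match is a run of letters and was not measured as a binding site. The windows of Ccr9 and Bst2 held a match, and that of Lair1 held none.

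**Figure D1:**
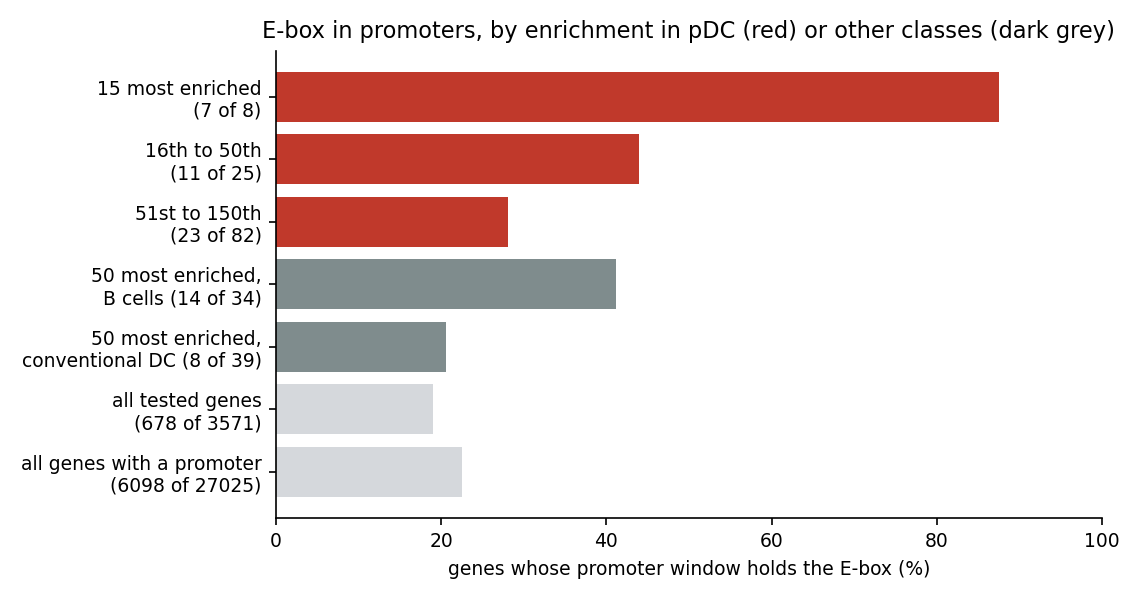
Share of genes (%) whose promoter window of 300 bases holds the E-box CACCTG or CAGGTG, for genes ranked by enrichment in pDCs (red), for the 50 genes most enriched in B cells and conventional dendritic cells (DC) (dark grey) and for all tested genes and all genes with a window (light grey). The bars fall from 87.5% over 44% to 28.0% down the pDC ranking, and the background is at 19.0% for tested genes.

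The share of pDCs was lower in the h219-LLG library. They made up 0.538% of kept barcodes with h219-LLG (interval 0.385 to 0.732, Clopper-Pearson) and 1.96% with the control antibody (1.62 to 2.36), a ratio of 0.274 (0.191 to 0.393). The intervals did not overlap. B cells, by contrast, were 29.2% of both libraries. Conventional dendritic cells (Flt3 with Xcr1, Clec9a or Cd209a) were 0.686% with h219-LLG and 0.428% with the control, a ratio of 1.60 (0.988 to 2.60), and migratory dendritic cells (Ccr7 with Fscn1) were 0.579% and 0.410%, a ratio of 1.41 (0.851 to 2.34). Among these 3 dendritic cell classes together, pDCs were 40 of 133 (30.1%, 22.4 to 38.6) with h219-LLG and 110 of 157 (70.1%, 62.2 to 77.1) with the control. A share within sorted CD45+ cells cannot tell fewer pDCs from more of the other cells. With 1 library per group, a difference between libraries and that between antibodies cannot be told apart. The ratio stayed between 0.250 and 0.304 in all 14 alternatives tried, among them the 8 genes without Siglech and a denominator without B and T cells.

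**Figure D2:**
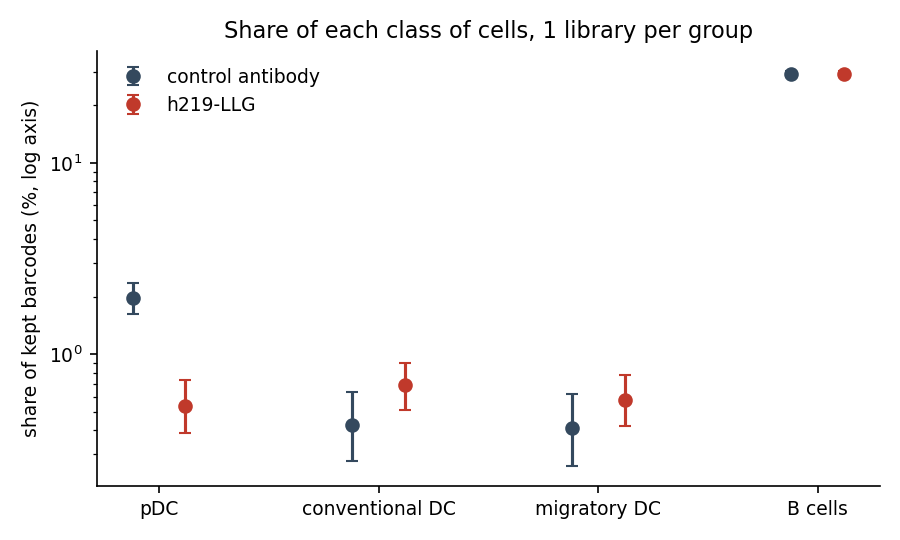
Share of kept barcodes (%, log axis) that were pDCs, conventional and migratory dendritic cells (DC) and B cells, with Clopper-Pearson 95% intervals, in 1 library per antibody. Only for pDCs do the intervals of the libraries not overlap, with shares of 1.96% with the control antibody and 0.538% with h219-LLG.

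Gene levels in pDCs were compared between the libraries for the 4573 genes with at least 50 UMIs over both. Of these, 277 (6.06%) were at least 1.5-fold higher with h219-LLG and 589 (12.9%) at least 1.5-fold lower, and 2107 (46.1%) had a ratio above 1, whereas the same genes in all other kept barcodes passed 1.5-fold in 2.27% and 2.32% of cases. The larger shares in pDCs came with far fewer UMIs. These shares are the background for the counts below. The median log2 ratio of all tested genes was -0.04.

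Lair1, the mouse counterpart of the antibody's target, was the first gene examined, although a 3′ read cannot show whether a deletion elsewhere in the gene is present, and human LAIR1 was not among the genes counted. Mouse Lair1 (ENSMUSG00000055541, chr7:4003402-4063204) stood at 536 CPM (465 to 615) in the h219-LLG pDCs and 523 CPM (485 to 563) in the control pDCs, a ratio of 1.03 (0.873 to 1.20). It was at 24.3 and 20.5 CPM in all other kept barcodes, 23.0 and 14.2 CPM in B cells and 10.3 and 10.0 CPM in conventional dendritic cells, so pDCs held 22.1 and 25.5 times the level of the rest. With every cell thinned to 4000 UMIs, 84.2% and 81.7% of pDCs had a Lair1 UMI, against 1.78% and 1.08% of B cells, and without thinning 39 of 40 and 109 of 110 pDCs did. The transcript was thus a strong mark of pDCs in both libraries, within a strain labelled as lacking the receptor.

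Of the 19 tested genes of the LAIR1, ITIM and ITAM list, 13 had a ratio above 1. Past 1.5-fold were 3 upward (15.8%, against 6.06% of all tested genes) and 1 downward (5.26%, against 12.9%). The median log2 ratio was 0.08 (0.25 in the other kept barcodes). The genes of both protein phosphatases had intervals that spanned 1. Ptpn6 (SHP-1) stood at 378 CPM with h219-LLG and 389 CPM with the control (ratio 0.971, 0.802 to 1.17). Ptpn11 (SHP-2) stood at 39.6 and 37.5 CPM (1.06, 0.551 to 1.91). Inpp5d, the gene of the lipid phosphatase SHIP1, stood at 111 and 160 CPM (0.691, 0.484 to 0.965). The activating adaptor gene Tyrobp (DAP12), which pairs with Siglec-H, stood at 4069 and 3649 CPM (1.12, 1.05 to 1.18). Fcer1g, the Fc receptor gamma chain gene, stood at 1146 CPM with h219-LLG and 758 CPM with the control (1.51, 1.35 to 1.69). Pirb, an inhibitory receptor gene, stood at 129 and 73.6 CPM (1.76, 1.22 to 2.50), and its ratio in the other kept barcodes was 1.78, so that its excess was as large outside the pDCs. The third gene past 1.5-fold was Fcgr2b, at 47.5 and 31.7 CPM, whose interval (0.815 to 2.66) spanned 1. Fcer1g and Fcgr2b were at 1.49 and 1.48 with TMM scaling, and Pirb at 1.38 with Siglech asked for at 1 UMI, below 1.5-fold. The gene that passed downward was Ceacam1, at 42.2 and 71.4 CPM (0.592, 0.325 to 1.01).

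Among the transcription factors that hold pDC identity, Tcf4 and Irf8 were close to level. Of 12 tested, 8 had a ratio above 1, 2 passed 1.5-fold upward (16.7%, against 6.06% of all tested genes) and none downward, and their median log2 ratio was 0.18 (0.03 in the other kept barcodes). Tcf4 had a ratio of 1.04 (0.965 to 1.12) and Irf8, at 2503 and 2605 CPM, of 0.961 (0.893 to 1.03). Bcl11a, which acts upstream of Tcf4, stood at 710 CPM with h219-LLG and 460 CPM with the control (1.54, 1.33 to 1.78), and at 1.35 in the other kept barcodes. Spi1 (PU.1), a myeloid factor, stood at 79.2 and 47.1 CPM (1.68, 1.05 to 2.63). Both left the 1.5-fold range under an alternative, Bcl11a at 1.48 with Siglech asked for at 1 UMI and Spi1 at 1.22 with it asked for at 10, while thinned to equal depth Spi1 was at 2.61. The lowest ratios of the list were those of Ikzf1, at 269 and 356 CPM (0.756, 0.604 to 0.938), and Irf8.

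Surface and identity genes were divided. Of 21 tested, 12 had a ratio above 1. Past 1.5-fold were 1 upward and 1 downward (4.76% each, against 6.06% and 12.9% of all tested genes). The median log2 ratio was 0.09, against 0.20 in the other kept barcodes. Ly6d, a small GPI-anchored surface protein gene, was the one upward, at 2432 CPM with h219-LLG and 1503 CPM with the control (1.62, 1.49 to 1.75). Ly6c2, of the same family and common on mouse pDCs, stood at 1745 and 1275 CPM (1.37, 1.25 to 1.498). Ccr9, the receptor for the gut chemokine CCL25, went the other way, at 1473 and 1976 CPM (0.746, 0.679 to 0.817), and in single cells its median was 12.3 UMIs per 10000 with h219-LLG and 19.6 with the control. Blnk, a B cell linker gene that pDCs also use, stood at 224 and 320 CPM (0.702, 0.550 to 0.888). Havcr1, the one past 1.5-fold downward, stood at 44.9 and 74.4 CPM, with an interval (0.338 to 1.02) that reached 1. Thinned to 4000 UMIs it was at 0.807 in 1 draw, and its means were 0.184 and 0.284 UMIs per cell in another. Siglech and Bst2 had ratios of 0.856 and 0.893. Leaving out the 4 and 4 members with under 10 Siglech UMIs gave 0.923 and 0.948 for these genes and 0.809 for Ccr9.

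**Figure D3:**
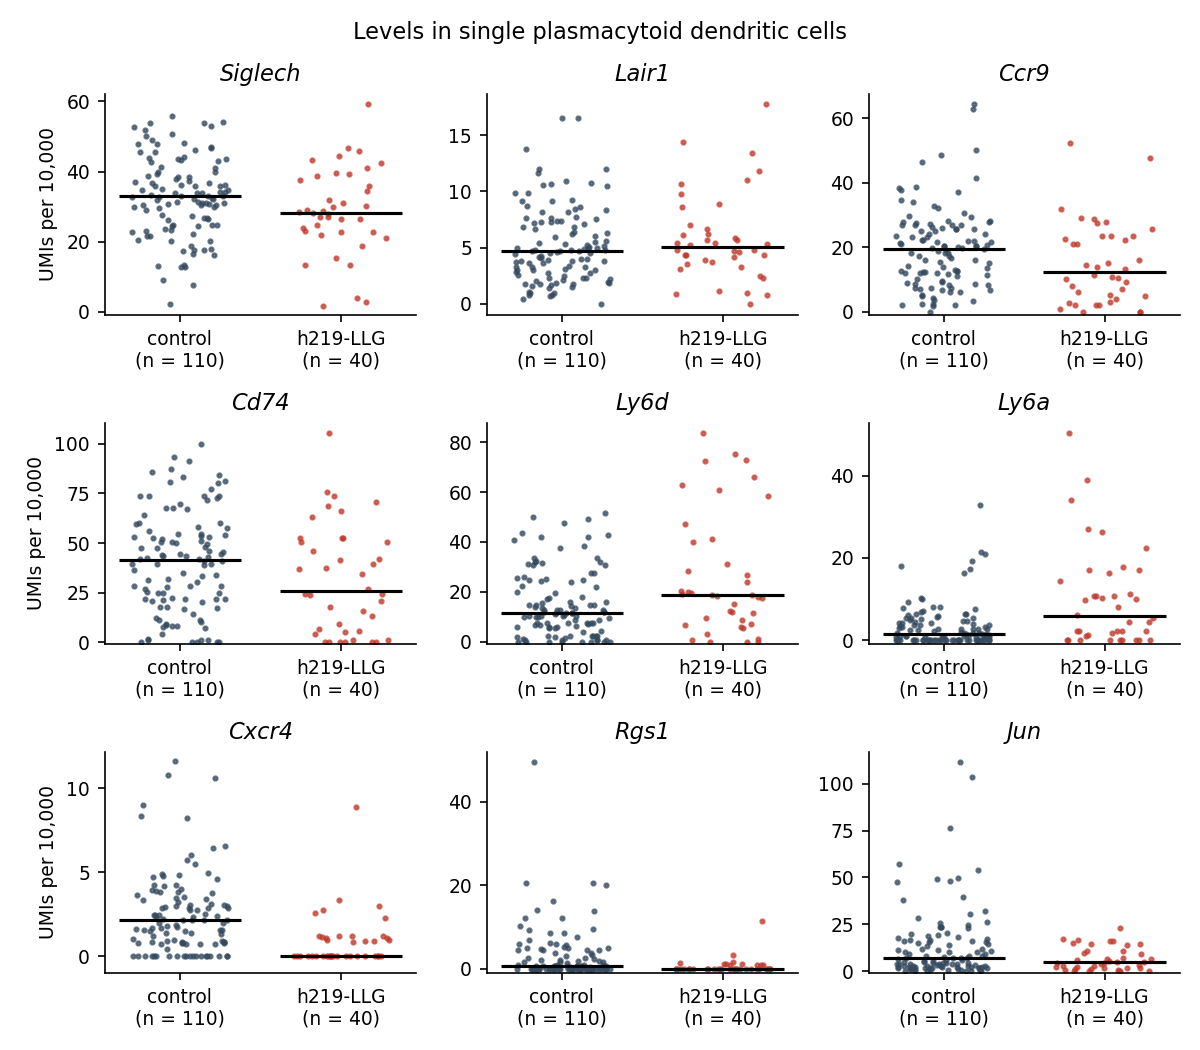
UMIs per 10000 UMIs of 9 genes in each pDC (points) of the control (110) and h219-LLG (40) libraries, with the median of each as a line. The cells of both libraries overlap for every gene, the Ccr9 median is lower with h219-LLG (12.3 against 19.6) and the Ly6a median is higher (5.77 against 1.56).

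Nucleic acid sensing genes were the list with the lowest median among those with at least 8 genes tested. Of 14 tested, 4 had a ratio above 1, none passed 1.5-fold upward and 6 passed downward (42.9%, against 12.9% of all tested genes), with a median log2 ratio of -0.41, against -0.03 in the other kept barcodes. The receptor gene Tlr7 was level, at 129 CPM with h219-LLG and 125 CPM with the control (1.03, 0.736 to 1.43). Irf7, which turns on type I interferon genes, stood at 66.0 and 119 CPM (0.557, 0.350 to 0.852). Slc15a4, the endolysosomal transporter that TLR7 and TLR9 signaling needs, stood at 106 and 176 CPM (0.600, 0.418 to 0.842). Irf3 rested on 7 and 69 UMIs (0.364, 0.141 to 0.791) and Rela, an NF-kappaB subunit gene, on 12 and 100 UMIs (0.430, 0.215 to 0.786). The remaining genes past 1.5-fold were Ap3b1 and Irf5, and the highest ratios were those of Myd88 (1.43, 0.854 to 2.34) and Irak1 (1.08, 0.706 to 1.60). Tlr9 had under 50 UMIs and was not tested. These are low-abundance genes, and with at least 200 UMIs asked of a gene the list's median log2 ratio was -0.08. Thinned to equal depth in 1 draw, Irf7 was at 0.731, no longer past 1.5-fold, Ap3b1 at 0.185, and Irf5 turned to 1.06. In another draw the Irf7 means were 0.316 and 0.523 UMIs per cell, still past 1.5-fold downward.

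No pDC in either library held a UMI of any of 18 interferon genes counted together (the type I genes, Ifnl2 and Ifnl3). A count of 0 allows up to 7.92 CPM with h219-LLG and 2.21 CPM with the control, and 0 of 40 and 0 of 110 allow up to 7.5% and 2.73% of pDCs to hold such a UMI, which does not limit the share that expresses the genes. All kept barcodes together held 14 and 30 such UMIs. Of the cytokine genes tested, only Ccl4 and Il12a had enough UMIs, and both were lower with h219-LLG. Ccl4, a chemokine gene, stood at 404 and 755 CPM (0.535, 0.449 to 0.635). Il12a, which encodes the p35 subunit of IL-12, stood at 42.2 and 74.4 CPM (0.568, 0.313 to 0.968). Thinned to equal depth its ratio was 0.876 in 1 draw, and its means were 0.211 and 0.321 UMIs per cell in another. Without the highest cell of each library its ratio was 0.356. Ccl4 was uneven among cells, with a median of 0 UMIs and a highest value of 34 with h219-LLG, and a median of 1 and a highest of 97 with the control.

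The genes of the interferon-stimulated list leaned upward. Other genes that interferon can raise were counted in other lists and went both ways, among them Irf7 (0.557), Bst2 (0.893) and Ly6a (2.66). Of 11 tested, 10 had a ratio above 1 and 5 passed 1.5-fold upward (45.5%, against 6.06% of all tested genes), none passed downward, and the median log2 ratio was 0.26, against 0.00 in the other kept barcodes. Ifi27l2a, a strongly inducible gene, stood at 935 CPM with h219-LLG and 507 CPM with the control (1.85, 1.62 to 2.10), with a ratio of 1.02 outside the pDCs. Its excess sat in few cells, since the medians were 2.23 and 2.40 UMIs per 10000 and the highest values 63.9 and 30.1, and without the highest cell of each library the ratio was 1.53. Trim30a stood at 264 and 175 CPM (1.51, 1.18 to 1.91) and Irf9, a subunit of the factor that type I interferon activates, at 100.3 and 62.6 CPM (1.60, 1.06 to 2.38). Ifi44 and Samd9l had ratios of 1.66 and 1.79 with intervals that spanned 1. Thinned to equal depth in 1 draw, Trim30a and Irf9 were at 1.45 and 1.30, below 1.5-fold. In another draw the Trim30a means were 1.11 UMIs per cell with h219-LLG and 0.661 with the control. Those of Irf9 were 0.553 and 0.284, so both passed 1.5-fold there and thinning did not settle either call. Samd9l was at 1.31 with Siglech asked for at 10 UMIs, below 1.5-fold. Stat2 was the lowest, at 76.6 and 110 CPM (0.698, 0.452 to 1.04). A further 20 genes of the list had under 50 UMIs, 4 of them 0 in both libraries.

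Of 8 MHC class II genes tested, 2 had a ratio above 1, none passed 1.5-fold upward and 1 passed downward (12.5%, against 12.9% of all tested genes), with a median log2 ratio of -0.27, against 0.23 in the other kept barcodes. H2-Eb1 stood at 570 CPM with h219-LLG and 884 CPM with the control (0.645, 0.555 to 0.746). Cd74, the invariant chain gene, stood at 3150 and 4178 CPM (0.754, 0.708 to 0.803), and H2-Ab1 at 1241 and 1634 CPM (0.759, 0.686 to 0.839). H2-DMa, which loads peptides, had the highest ratio, 1.34 (1.13 to 1.59), at 488 and 364 CPM. Without the deepest pDC of each library H2-Eb1 was at 0.741, no longer past 1.5-fold, Cd74 at 0.812 and the median log2 ratio of the list at -0.14, and as a mean over cells H2-Eb1 was at 0.682. In the other kept barcodes Cd74, H2-Ab1 and H2-Eb1 had ratios of 1.10, 1.17 and 1.18, so the direction was opposite there. Of 10 class I genes, 9 had a ratio above 1, none passed 1.5-fold upward and 1, the peptide transporter gene Tap2, passed downward, at 29.0 and 69.2 CPM (0.420, 0.203 to 0.786), while B2m stood at 2783 and 2720 CPM (1.02, 0.954 to 1.10). The highest class I ratios were those of Tap1 (1.37, 0.947 to 1.96) and the immunoproteasome gene Psmb9 (1.21, 0.956 to 1.51).

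Among trafficking genes, the chemokine receptor gene Cxcr4 stood apart. Of 12 tested, 9 had a ratio above 1. Past 1.5-fold were 1 upward and 1 downward (8.33% each, against 6.06% and 12.9% of all tested genes). The median log2 ratio was 0.13, against 0.15 in the other kept barcodes. Cxcr4 (chr1:128588199-128592293), the receptor for CXCL12, stood at 68.7 CPM with h219-LLG and 259 CPM with the control (0.265, 0.171 to 0.395), with UMIs in 18 of 40 and 90 of 110 cells. With cells thinned to 4000 UMIs, 21.1% and 61.5% of pDCs held one. The same gene was lower outside the pDCs too, with a ratio of 0.556 in the other kept barcodes and 0.597 in B cells. In conventional dendritic cells, of which there were only 51 and 24, it was 0.301. Ccr2, a receptor for CCL2, was the one upward, at 227 and 141 CPM (1.61, 1.24 to 2.09), and had a ratio of 2.01 elsewhere, but was at 1.28 without members under 10 Siglech UMIs and at 1.42 without the deepest cell of each library. Cxcr3 stood at 44.9 and 64.8 CPM (0.693, 0.386 to 1.17).

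pDCs have a large secretory apparatus, and several of its stress genes had lower levels with h219-LLG. Of 19 genes of the endoplasmic reticulum (ER) and secretory pathway, 6 had a ratio above 1. Past 1.5-fold were 1 upward (5.26%, against 6.06% of all tested genes) and 5 downward (26.3%, against 12.9%). The median log2 ratio was -0.19, against -0.04 in the other kept barcodes. Ddit3 (CHOP) stood at 63.4 and 215 CPM (0.295, 0.186 to 0.447), Herpud1 at 283 and 518 CPM (0.545, 0.441 to 0.669) and Atf4 at 217 and 387 CPM (0.559, 0.438 to 0.707). Xbp1, the secretory cell factor, stood at 288 and 452 CPM (0.637, 0.514 to 0.782), and Sec61a1 at 153 and 239 CPM (0.642, 0.477 to 0.851). Thinned to 4000 UMIs, Atf4, Xbp1 and Sec61a1 were at 0.713, 0.762 and 0.837 and no longer passed 1.5-fold. Ddit3, Herpud1, Atf4 and Xbp1 were also below 1 in the other kept barcodes, at 0.538, 0.773, 0.751 and 0.737, and Sec61a1 was at 1.02. Chaperone genes were divided, with Hspa5 (BiP) at 0.727 (0.648 to 0.815), Hsp90b1 at 1.01 (0.904 to 1.13) and Calr at 1.14 (0.969 to 1.34). Ern1, the gene of the IRE1 sensor, was the one upward, on 19 and 34 UMIs (2.00, 1.08 to 3.62), and at 1.42 without the highest cell of each library.

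Immediate early and heat shock genes, which also respond to tissue dissociation, did not move together. Of 18 tested, 9 had a ratio above 1. Past 1.5-fold were 3 upward (16.7%, against 6.06% of all tested genes) and 4 downward (22.2%, against 12.9%). The median log2 ratio was -0.05, against -0.34 in the other kept barcodes. Jun stood at 642 CPM with h219-LLG and 1402 CPM with the control (0.458, 0.399 to 0.523), Jund at 520 and 1100 CPM (0.473, 0.406 to 0.549) and Fosb at 214 and 546 CPM (0.392, 0.308 to 0.494). Jun was at 1.25 in the other kept barcodes, while Fos had a ratio of 1.19 (1.01 to 1.40) in the pDCs. Hspa1a had the highest ratio of all ranked genes, at 174 and 28.7 CPM (6.07, 4.03 to 9.26), but its UMIs came from 3 of 40 and 10 of 110 cells and 69.7% of those with h219-LLG from 1 cell. Hspa1b stood at 97.7 and 31.7 CPM (3.09, 1.93 to 4.90) and was at 1.46 without members holding a Cd79a UMI. The other genes past 1.5-fold were Ier2 (1.62, 1.09 to 2.36), at 1.34 when thinned, and Nfkbia (0.663, 0.551 to 0.794), at 0.717 when thinned. In another draw the Nfkbia means were 1.26 and 2.25 UMIs per cell, still past 1.5-fold. Without members under 10 Siglech UMIs the Hspa1a ratio was 2.01, without the highest cell of each library it was 3.49, and the median log2 ratio over the list fell to -0.52. With Siglech asked for at 1 UMI the list's median was 0.08, so its sign depended on a few cells at the threshold.

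Genes of survival and of the nuclear-encoded respiratory chain completed the lists with at least 8 genes tested, apart from one of transitional and conventional dendritic cell genes. The BH3-only death genes Bcl2l11 (BIM) and Bbc3 (PUMA) stood at 47.5 and 97.2 CPM (0.489, 0.281 to 0.803) and at 47.5 and 88.3 CPM (0.538, 0.308 to 0.887), and were the only 2 of 8 survival genes past 1.5-fold in either direction. These 2 genes were 25% of the list, against 12.9% of all tested genes past 1.5-fold downward. Thinned to 4000 UMIs in 1 draw, Bcl2l11 and Bbc3 were at 0.700 and 0.698 and no longer passed. In another draw the means were 0.211 and 0.312 UMIs per cell for Bcl2l11, not past 1.5-fold. Those of Bbc3 were 0.184 and 0.404, still past it. Mcl1 was at 499 and 527 CPM (0.947, 0.802 to 1.11). Of 33 respiratory chain genes, 26 had a ratio above 1, 1 passed upward (3.03%, against 6.06% of all tested genes) and none downward. The median log2 ratio was 0.23, against 0.15 in the other kept barcodes. The highest was Ndufb2, at 145 and 76.6 CPM (1.90, 1.34 to 2.65), followed by Ndufa4 (1.38, 1.12 to 1.69), the lowest was Ndufc2 (0.832, 0.594 to 1.14), and Cox4i1 stood at 1143 and 907 CPM (1.26, 1.13 to 1.41). Of 3 tolerogenic genes tested, Nrp1 passed downward, at 100.3 and 166 CPM (0.603, 0.416 to 0.853), with 1.44 elsewhere, and Lag3 was at 158 and 120.0 CPM (1.32, 0.965 to 1.79). Of the 2 costimulatory or coinhibitory ligand genes and the 3 cell cycle genes tested, none passed 1.5-fold in either direction.

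**Figure D4:**
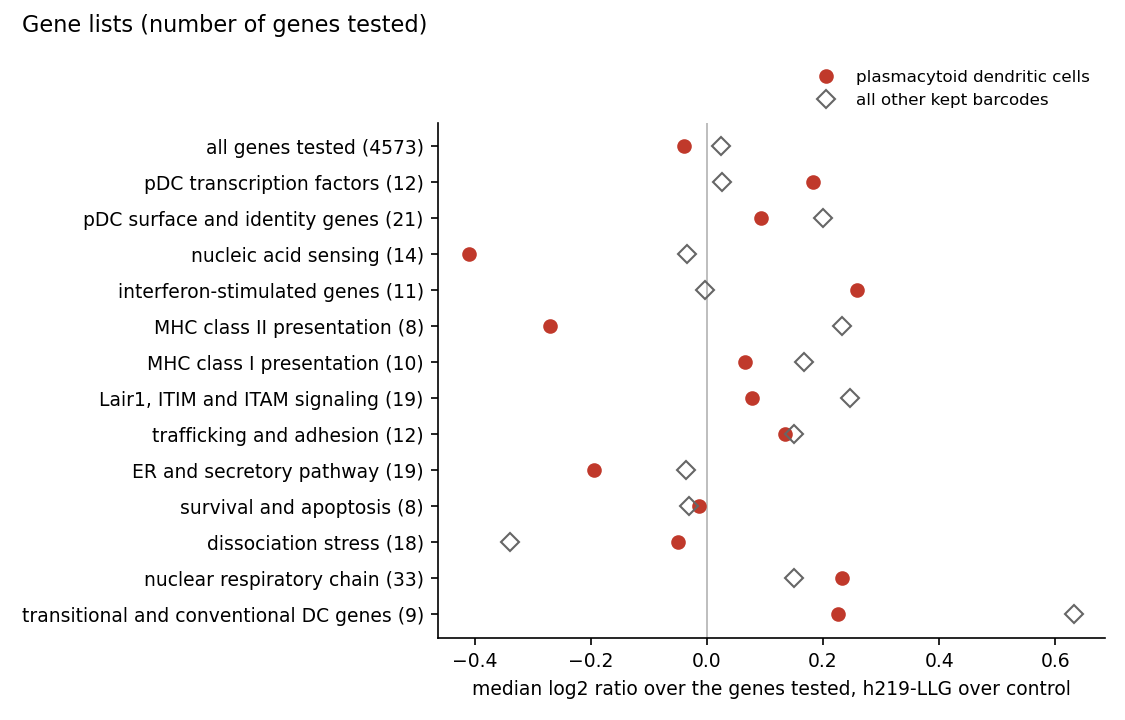
Median log2 ratio (h219-LLG over control) of the tested genes of each list with at least 8 of them, in pDCs (red circles) and in all other kept barcodes (open diamonds). In pDCs the medians run from -0.41 for nucleic acid sensing to 0.26 for interferon-stimulated genes, and those of MHC class II lie on opposite sides of 0 in pDCs (-0.27) and elsewhere (0.23).

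The list of transitional and conventional dendritic cell genes was led by Ly6a. Of 9 tested, 6 had a ratio above 1 and 2 passed upward (22.2%, against 6.06% of all tested genes). The median log2 ratio was 0.23, against 0.63 in the other kept barcodes. Ly6a (Sca-1, chr15:74994877-74998031), a small surface protein gene that interferon can raise, stood at 956 CPM (362 UMIs) with h219-LLG and 360 CPM (489 UMIs) with the control (2.66, 2.31 to 3.05). Its median was 5.77 and 1.56 UMIs per 10000. Its ratio was 1.66 in the other kept barcodes and 6.64 in conventional dendritic cells, where the levels were 100.02 and 15.1 CPM. That class held 51 and 24 cells and, in the control library, 398110 UMIs of all genes, so the control level there rests on few Ly6a UMIs. Without the highest pDC of each library the pDC ratio was 2.54. Cd8a was the other one upward, at 58.1 and 30.9 CPM (1.88, 1.07 to 3.22). Thinned to 4000 UMIs it no longer passed, at 1.30 in 1 draw and at means of 0.237 and 0.220 UMIs per cell in another, and with doublet scores removed it was at 3.21. Axl, a defining gene of the transitional state between pDCs and conventional dendritic cells, was at 0 in the pDCs of both libraries. Xcr1, Cd81 and Fscn1 were at 0 in the h219-LLG pDCs but not in the control pDCs. Flt3 stood at 116 and 121 CPM (0.956, 0.670 to 1.34).

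Among the 2670 genes with at least 100 UMIs that were not over 5 times higher in another class, the 10 highest ratios ran from 6.07 down to 1.87. After Hspa1a came Gm10076, at 420 and 147 CPM (2.87, 2.31 to 3.55), whose ratio outside the pDCs was 2.60. Ly6a followed, then Cd48, a ligand gene of the SLAM family, at 243 and 105 CPM (2.32, 1.77 to 3.04), with 1.78 elsewhere. Ms4a6c, at 143 and 61.8 CPM (2.31, 1.61 to 3.28), rested on the members near the threshold, since its ratio without them was 1.13. S100a6, a calcium-binding protein gene, stood at 892 and 427 CPM (2.09, 1.82 to 2.39), with 1.56 elsewhere. The others were Pou2f2 and Sox4, both transcription factor genes, Ndufb2 and Fam117a. Pou2f2 rested on 35 and 65 UMIs, and thinned to 4000 UMIs it was at 1.43 in 1 draw and at means of 0.237 and 0.248 UMIs per cell in another, so that its direction was not kept. In the other kept barcodes, 8 of the 10 also had a ratio above 1.

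The 10 lowest ratios ran from 0.197 to 0.306. Rgs1, which dampens chemokine receptor signals, was the lowest, at 66.0 CPM (25 UMIs) with h219-LLG and 334 CPM (454 UMIs) with the control (0.197, 0.126 to 0.295), and was read in 11 of 40 and 60 of 110 cells. With cells thinned to 4000 UMIs, 15.8% and 41.3% of pDCs held one, against 17.2% and 12.8% of B cells. A single h219-LLG cell held 12 of the 25 UMIs, and without the highest cell of each library the ratio was 0.120, as it was without members holding a Cd79a UMI. In the other kept barcodes the ratio was 0.965. Id3, an inhibitor of E proteins such as TCF4, stood at 18.5 and 86.1 CPM (0.215, 0.0844 to 0.456), from 7 and 117 UMIs, and at 0.411 with Siglech asked for at 1 UMI. Zbtb10 stood at 29.0 and 117 CPM (0.248, 0.121 to 0.456) and the clock gene Per1 at 42.2 and 162 CPM (0.261, 0.147 to 0.433). The others were Grasp, Cxcr4, Ddit3, Zbtb38, Mast4 and Rgcc, of which Zbtb38 and Mast4 were at 0.185 and 0.0755 when thinned in 1 draw. In another draw the means were 0.0789 and 0.321 UMIs per cell for Zbtb38 and 0.132 and 0.385 for Mast4. All 10 were also below 1 in the other kept barcodes, from 0.482 for Grasp to 0.965 for Rgs1. Each was nearer to 1 there than in the pDCs, which choosing genes by their lowest pDC ratios favors.

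**Figure D5:**
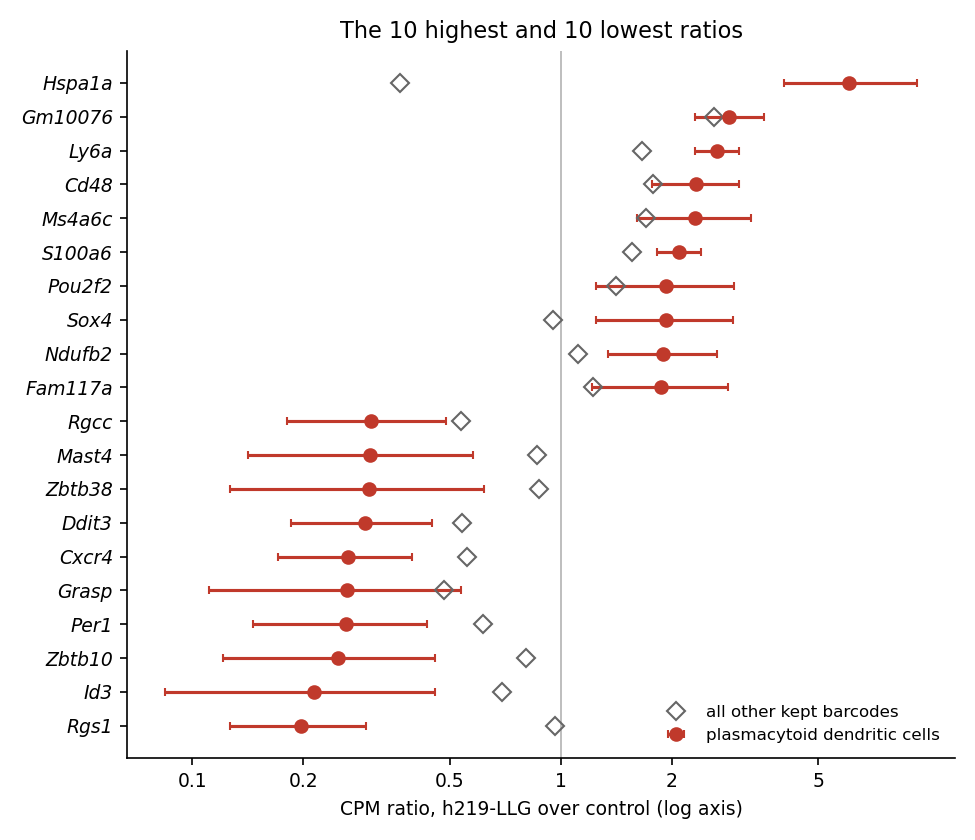
CPM ratio (h219-LLG over control, log axis) of the 10 highest and 10 lowest ranked genes in pDCs, with intervals of counting error, beside the ratio in all other kept barcodes (open diamonds). Hspa1a lies at 6.07 in pDCs and 0.367 elsewhere, and all 10 lowest genes lie below 1 in both.

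The spread of gene counts between pDCs was described within each library. With cells thinned to 4000 UMIs (38 and 109 cells), the median variance over the mean of 3080 genes was 1.07 with h219-LLG and 1.10 with the control, near the value of 1 that counting alone gives. Genes with few UMIs per cell stay near 1 even where cells differ, so this does not show how many genes varied. The 20 most variable genes of the control pDCs included Malat1, Ccl4, Jun, Fos, Cd74, Rgs1, Ly6d, Ly6c2, Klk1 and Ly6a, and 11 of the 20 were among the 20 most variable with h219-LLG too. Ly6d varied more with h219-LLG (variance over mean 9.54) than with the control (5.45), and Jun less (2.65 and 11.1). Gm42418 led the control list at 89.3 but stood 42nd with h219-LLG, at 3.11. These genes were chosen for their spread, after their values were seen.

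Some gene pairs went together from cell to cell. The Spearman correlation of Cd74 with H2-Aa across cells was 0.89 with h219-LLG (38 cells) and 0.76 with the control (109 cells). That of Ly6a with Ly6c2 was 0.64 and 0.39, and that of Rgs1 with Jun 0.38 and 0.50. Cells of 1 library share their tumor tissue and processing, so these values describe the 2 libraries.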

How the data were processed

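Processed files of 2 single-cell libraries (10x Genomics 3′ chemistry) were used. The deposited matrices are raw UMI counts of genes by barcodes. For them the submitters' processing notes name Cell Ranger 5.0.0 and mm10. They held 8807 and 6133 barcodes for h219-LLG and control, with 48834592 and 40339654 UMIs.

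The members and gene lists were chosen with earlier results of these data known. Raw counts of the pDCs were summed per library and divided by the library's summed pDC counts (CPM). With 1 library per group no test was run. Ratios carry intervals from the split of UMIs between libraries given their totals, levels exact Poisson intervals, and shares exact Clopper-Pearson intervals. Intervals were tested on counts simulated without differences between cells. That check cannot show whether they are wide enough for genes that vary between cells, such as Ccl4 and Jun. Genes needed 50 UMIs to be counted against 1.5-fold and 100 to be ranked. Named genes were taken from the 2 highest and 2 lowest of each list and genes of known role, the 10 highest and 10 lowest ratios among ranked genes not over 5 times higher in another class, and the 15 most enriched. Of the lists, further members are named where they passed 1.5-fold or carry a well known role, and these were chosen after their values were seen. B cells were kept barcodes with at least 3 Cd79a UMIs. Doublets were not removed. A score from simulated doublets marked 5.95% and 4.49% of kept barcodes, 1 and 6 of them pDCs, and was used as an alternative only. Gene positions are those of GENCODE vM21 (GRCm38), matched by identifier. Python 3.11.15, numpy 2.4.6, scipy 1.17.1, pandas 2.3.3 and scikit-learn 1.9.0 were used.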

Additional observations from a re-analysis of the deposited data

How the results depend on the processing

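The pDC share ratio kept its direction in all 14 alternatives, from 0.250 to 0.304, with an upper bound below 1 in each. Counts of genes past 1.5-fold moved with the UMIs asked of a gene. They were 733 higher and 1182 lower of 7001 genes at 20 UMIs, 32 and 110 of 1375 at 200 UMIs, and 113 and 226 of 1885 with cells thinned to 4000 UMIs, where fewer genes were tested. Of 131 alternative medians over 12 lists, 130 stayed between the medians of the single genes' lower and upper bounds. That range is wide, -1.19 to 0.18 for nucleic acid sensing, and is not an interval of the list median. Staying inside it therefore says little. The dissociation stress list moved to a median log2 ratio of -0.52 with at least 10 Siglech UMIs, and the cause was not tested. Leaving out the deepest pDC of each library, chosen after seeing the data, moved no count or list median past these limits. Of 206 genes followed, 171 stayed within their interval in every alternative. Changing the UMIs asked of a gene cannot change its ratio, and those settings are among the alternatives. Irf5 turned to 1.06 when thinned, and the macrophage gene Lyz2, higher with h219-LLG in the pDCs, turned to 0.243 with 1 Siglech UMI asked for. Ratios given as thinned come from 1 random draw. For several genes another draw changed whether 1.5-fold was passed. TMM scaling shifted log2 ratios by -0.02. No paired analysis was possible because each group has 1 library and no result comes from a test. Leaving out a replicate was not run for the same reason. Precision is limited by the 378725 UMIs and 40 cells of the h219-LLG pDCs.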
